A study of Homo sapiens with 4 samples.

Results

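The proteasome subunit genes were examined in FOXK2 ChIP-seq peak lists from OVCAR5 cells. They were taken as every row of the annotated lists whose gene name has the form PSMA to PSMG followed by a number. This gave 28 of 12471 peaks in replicate 1 and 46 of 27281 peaks in replicate 2. The peaks carried the names of 36 genes, out of 14631 gene names in either list and out of 48 genes with such a symbol in the RefSeq reference. OVCAR5 is an established ovarian cancer cell line, labelled as high grade serous and derived from ascites, and it was not treated or edited in these libraries. The series holds 4 ChIP-seq libraries, with 2 FOXK2 immunoprecipitations and 2 inputs, and the inputs were not analysed here. With a single condition there was no contrast to test, so counts and levels are given for each replicate beside the same measure over all peaks or genes. The peak lists hold no expression values, so the labelled cell type could not be checked against marker genes.

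The proteasome degrades ubiquitin-tagged proteins. Its barrel-shaped core particle is built of rings of alpha subunits (PSMA genes), which form the gate, around rings of beta subunits (PSMB genes), which include the proteases. A regulatory particle of ATPases (PSMC) and non-ATPase subunits (PSMD) recognises, deubiquitinates and unfolds substrates. Activators (PSME), an inhibitor (PSMF1) and assembly chaperones (PSMG) complete the gene set. FOXK2 is a forkhead transcription factor, and the forkhead family recognises the heptamer TGTTTAC. Cancer cells with a high protein load depend on the proteasome, and proteasome inhibitors are used as drugs.

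The heptamer lay in intronic peaks of both replicates at 4 proteasome genes. These sites are printed with 10 bases on each side, 5′ to 3′ on the strand that reads TGTTTAC, in lower case with the heptamer in capitals. All coordinates are hg38. All 4 sites are on the minus strand. PSMG2 is at chr18:12660113-12660139, PSMA1 at chr11:14578677-14578703, PSME4 at chr2:53969475-53969501 and PSMB7 at chr9:124386292-124386318. The flanking bases differed between the genes.
PSMG2: ccatttatctTGTTTACtggtgggtaa
PSMA1: ctctacttccTGTTTACgtagatagct
PSME4: actcattcagTGTTTACccaaagctgc
PSMB7: ttcaaggacaTGTTTACtttgaaattc

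Most proteasome peaks lay at promoters without the heptamer, and a pair of these promoters is shown for contrast. They were picked after values had been seen, among the genes with higher-scoring promoter pairs, because their windows hold no annotated UTR. The sequences are the 250 bases before the RefSeq start (GRCh38.p14) of PSMD3 at chr17:39980557-39980806 and of PSMB3 at chr17:38752491-38752740, both on the plus strand. Capitals mark the letters CCAAT (a box common in promoters) and TGACNNNGC (the core of the antioxidant response element, read by the proteasome gene activator NFE2L1), on either strand. The peaks of replicates 1 and 2 covered 147 and 160 of the 250 bases at PSMD3, and 146 and 197 at PSMB3. Both promoters hold both kinds of letters, while those of PSME3 and PSMC3 hold 0 TGACNNNGC and that of PSMD9 holds 0 CCAAT.
PSMD3: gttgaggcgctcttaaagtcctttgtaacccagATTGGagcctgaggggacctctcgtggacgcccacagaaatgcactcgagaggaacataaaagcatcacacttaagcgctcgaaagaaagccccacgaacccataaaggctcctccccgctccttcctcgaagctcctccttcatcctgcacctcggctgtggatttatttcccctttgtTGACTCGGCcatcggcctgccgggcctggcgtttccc
PSMB3: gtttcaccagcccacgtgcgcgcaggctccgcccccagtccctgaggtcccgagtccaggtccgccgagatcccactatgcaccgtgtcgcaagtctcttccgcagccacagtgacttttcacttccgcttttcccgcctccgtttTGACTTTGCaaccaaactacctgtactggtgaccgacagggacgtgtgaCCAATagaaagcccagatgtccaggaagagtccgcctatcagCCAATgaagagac

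Of the 48 proteasome genes, 21 had an assigned peak in replicate 1 (43.8%, exact Clopper-Pearson 95% interval 29.5 to 58.8) and 34 in replicate 2 (70.8%, 55.9 to 83). Over the 20037 protein-coding genes of the reference the shares were 31.3% and 51.7%. A peak in both lists was present at 19 proteasome genes (39.6%, 25.8 to 54.7), against 28.6% of all protein-coding genes, and in either list at 36 (75%, 60.4 to 86.4), against 54.4%. At 17 of the genes with a peak in both, the peaks of the replicates overlapped by at least 1 bp (35.4% of 48, against 25.5%). These intervals, like all others given and like the limits for a count of 0, cover counting error only, and genes of a complex are not independent draws.

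The difference from the background was wider for peaks that the deposited annotation places in the promoter-TSS class. Such a peak was assigned to 15 proteasome genes in replicate 1 (31.2%, 18.7 to 46.3) and to 26 in replicate 2 (54.2%, 39.2 to 68.6), against 11.9% and 21.2% of all protein-coding genes. A promoter-TSS peak in both lists was found at 13 genes (27.1%, 15.3 to 41.8), namely PSMA1, PSMB1, PSMB2, PSMB3, PSMB4, PSMB7, PSMC3, PSMD2, PSMD3, PSMD7, PSMD9, PSMD12 and PSME3. The background was 9.31%. The promoter peaks of these 13 genes overlapped between the lists (27.1% of 48), against 9.03% of all protein-coding genes. Most genes with a promoter-TSS peak in both lists had overlapping ones (1810 of 1865 protein-coding genes). Ribosomal protein genes, another broadly expressed set, are given for comparison. In both lists, 22 of 83 cytosolic ribosomal protein genes (26.5%) and 28 of 74 mitochondrial ribosomal protein genes (37.8%) had a promoter-TSS peak. Both shares lie within the interval of the proteasome share. On some other measures the mitochondrial ribosomal protein genes were above it, with a promoter-TSS peak in replicate 1 at 47.3% of genes and any peak in both lists at 56.8%. Expression of these genes was not analysed here.

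**Figure D1:**
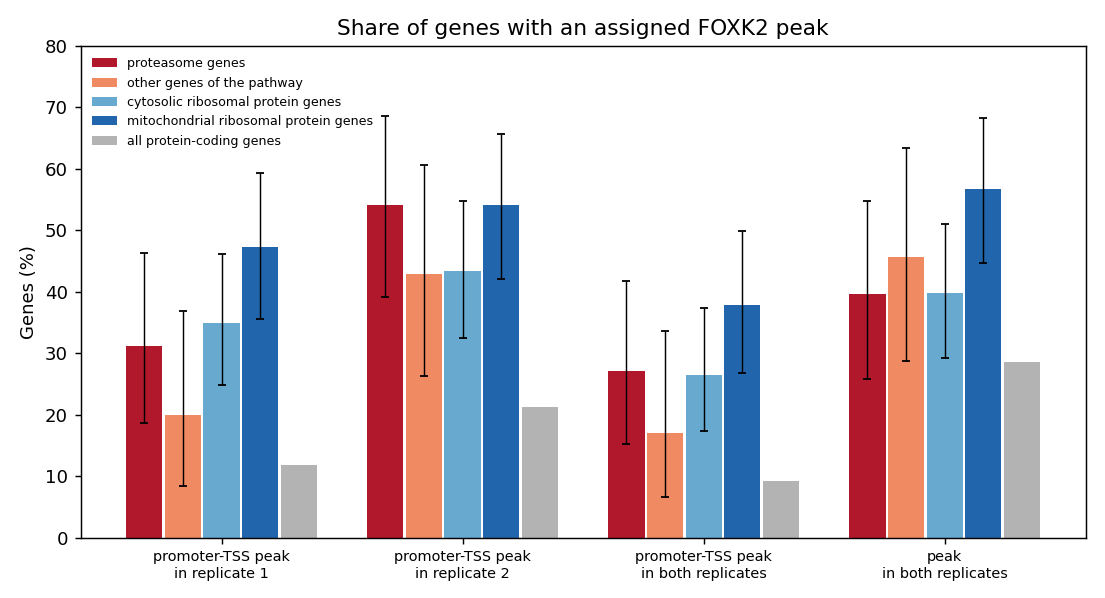
Percentage of genes with an assigned FOXK2 peak, for 48 proteasome genes, 35 other genes of the pathway, 83 cytosolic and 74 mitochondrial ribosomal protein genes and all 20037 protein-coding genes. Error bars are exact 95% binomial intervals. The proteasome bars for promoter-TSS peaks stand at 31.2, 54.2 and 27.1%, and the bars for all protein-coding genes at 11.9, 21.2 and 9.31%.

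All 7 constitutive beta genes had a promoter-TSS peak in replicate 2 (interval 59 to 100%), against 21.2% of all protein-coding genes. In replicate 1 it was 5 of 7 (71.4%, 29 to 96.3), against 11.9%, namely PSMB1, PSMB2, PSMB3, PSMB4 and PSMB7. The genes with a promoter peak in replicate 2 alone were PSMB5, which encodes the chymotrypsin-like protease targeted by clinical proteasome inhibitors, and PSMB6, which encodes the caspase-like protease. Their peak scores in replicate 2 were 8.63 and 9.67. The HOMER peak score is a tag count scaled to the library, so each score was ranked within its own list and given as a percentile, where 100 is the strongest peak. PSMB5 was at percentile 61.9 and PSMB6 at 68.9, so neither was among the weak peaks of that list. PSMB3, a structural beta subunit, had the strongest promoter peak of this role. Its score was 9.43 in replicate 1 (percentile 82.5) and 17.4 in replicate 2 (percentile 91.4), with peak centres at -182 and -154 bp from the TSS, where a minus sign means upstream. PSMB1 scored 5.85 and 11.9, PSMB2 scored 6.04 and 11.9, and PSMB4 scored 5.09 and 8.92. These genes were near the middle of list 1 or below, at percentiles 49.1, 52.2 and 34.8, and higher in list 2, at 79.7, 79.7 and 64.1.

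PSMB7, which encodes the trypsin-like protease, was the proteasome gene with most overlapping pairs of peaks, with 3. Its promoter peak was weak in replicate 1 (score 4.34, percentile 17) and stronger in replicate 2 (score 10.9, percentile 75.3). A pair in intron 5 scored higher, with 7.92 and 16.2 (percentiles 72.8 and 89.8) and centres 24629 and 24580 bp downstream of the TSS. A further pair in intron 5, at 29108 and 29164 bp, scored 5.28 and 7.44 and held the PSMB7 heptamer printed above. The strongest peak of the gene was therefore not at its promoter in either replicate.

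Among the inducible and tissue-specific beta genes, 1 of 4 had a promoter-TSS peak in replicate 2 (25%, 0.631 to 80.6), against 21.2% of all protein-coding genes. PSMB8, PSMB9 and PSMB10 encode the immunoproteasome proteases and PSMB11 a thymus-specific subunit. PSMB8 had a promoter-TSS peak in replicate 2 alone, with a score of 5.65 (percentile 30.9). PSMB10 had a pair of overlapping peaks in intron 4, with scores of 5.85 and 8.77, at 1137 and 1067 bp from the TSS. No peak carried the name PSMB9, but the PSMB8 peak lay 106 bp from an annotated PSMB9 start. PSMB11 had none, and the nearest peaks were 20041 and 6976 bp away.

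Of the 8 alpha genes, 3 had an assigned peak in replicate 1 (PSMA1, PSMA6 and PSMA7) and 5 in replicate 2 (PSMA1, PSMA3, PSMA4, PSMA5 and PSMA6). These shares of 37.5% (8.52 to 75.5) and 62.5% (24.5 to 91.5) were near the 31.3% and 51.7% of all protein-coding genes. PSMA7, a subunit of the alpha ring, held the strongest proteasome peak of replicate 1. Its score was 12.6, or 67 tags if the smallest step between scores is taken as 1 tag, at rank 974 of 12471 (percentile 92). In replicate 2 the overlapping peak carried the name SS18L1, which starts beside PSMA7. That peak scored 21.7 (146 tags, rank 1246 of 27281, percentile 95.4), shared 199 bp with the peak of replicate 1 and was centred 170 bp from a PSMA7 start. The count of genes by name therefore missed PSMA7 in replicate 2, although the region was in both lists.

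PSMA1 had overlapping peaks at its promoter and far from it. The promoter pair scored 5.66 and 9.82 (percentiles 45.8 and 69.9). The pair in intron 2 of the longer transcript scored 9.81 and 18.0 (percentiles 84.2 and 92.2) and held the PSMA1 heptamer printed above, 2 and 7 bp from the peak centres. The intronic pair outscored the promoter pair in both replicates. PSMA6 had an overlapping pair at its start with scores of 6.6 and 10.7, classed as non-coding in replicate 1 and as promoter-TSS in replicate 2. It also had 2 unpaired peaks in each list. PSMA3 (7.58), PSMA4 (7.73) and PSMA5 (5.21) had peaks in replicate 2 alone, within 218 bp of the TSS. PSMA2 had a peak within 134 bp of its start in replicate 2, with a score of 14.0 (percentile 85.7), that was named for the adjacent MRPL32. By position, 3 of the 8 alpha genes had a peak centre within 1000 bp of a GENCODE start in replicate 1 (37.5%, against 19.3% of all protein-coding genes). In replicate 2 it was 7 of 8 (87.5%, against 33.6%). PSMA8, the testis-specific alpha gene, had its nearest peaks 43162 and 43103 bp away.

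Of the 6 ATPase genes, 2 had an assigned peak in each list (33.3%, 4.33 to 77.7), against 31.3% and 51.7% of all protein-coding genes. PSMC3 was the only ATPase gene whose name was on peaks in both lists, centred at 4 and -60 bp from the TSS. It scored 8.3 and 13.1 (percentiles 75.6 and 83.4). PSMC6 had a promoter peak in replicate 1 alone (score 5.09, percentile 34.8), and PSMC2 an exon 1 peak in replicate 2 alone (score 5.35, percentile 26.7). By position PSMC2 had peaks in both, since an overlapping pair named for DNAJC2 lay 170 and 183 bp from an alternative PSMC2 start. That pair was weak, with scores of 3.77 and 6.25 (percentiles 3.87 and 38.5). PSMC1, PSMC4 and PSMC5 had none within 10000 bp, the nearest being 11462 bp from PSMC5 in replicate 1.

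Of the 14 non-ATPase genes, 7 had an assigned peak in replicate 1 (50%, 23 to 77, against 31.3% of all protein-coding genes) and 12 in replicate 2 (85.7%, 57.2 to 98.2, against 51.7%). The 7 had peaks in both lists (50%, against 28.6%). The strongest was at PSMD3, a subunit of the lid of the regulatory particle, whose promoter is printed above. It scored 10.0 in replicate 1 (53 tags, rank 1839, percentile 85) and 19 in replicate 2 (128 tags, rank 1788, percentile 93.4). The centres were at -3 and 7 bp from the TSS. PSMD9, an assembly factor of the regulatory particle, scored 6.98 and 15 (percentiles 64 and 87.9). PSMD2, a scaffold that binds ubiquitin-like domains, scored 6.98 and 11.3. Its peaks shared only 40 bp, with centres at -189 and 5 bp from the TSS. PSMD12, a lid subunit, scored 6.23 and 10.6. PSMD7, the partner of the deubiquitinase, had a promoter pair at 5.66 and 10.4 and an intron 1 pair at 5.85 and 11.2.

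PSMD14, the deubiquitinase of the regulatory particle, had a peak in each list but the peaks did not overlap. The centre in replicate 1 was 163 bp from the TSS (score 7.17) and the centre in replicate 2 was 589 bp from it (score 7.58), 426 bp apart. PSMD8, a lid subunit, also had non-overlapping peaks in the lists. Promoter peaks in replicate 2 alone were found at PSMD13 (score 11.5), PSMD1 (10.3), PSMD6 (7.73), PSMD4 (6.69) and PSMD10 (3.42). PSMD13, PSMD6 and PSMD1 are structural subunits and PSMD4 is a ubiquitin receptor. PSMD10 is an assembly chaperone, and its peak at percentile 0.392 was the weakest of the proteasome set. PSMD5, also an assembly chaperone, had no peak under its own name. A pair named for CUTALP lay 178 and 154 bp from the PSMD5 start, with scores of 9.05 and 14.4 (percentiles 80.5 and 86.7). It held the heptamer at chr9:120843130-120843156 on the plus strand, 14 and 38 bp from the centres. The sequence is shown because it was the one heptamer in a promoter-TSS peak near a proteasome start, and it lies outside the set chosen by name.
PSMD5: taggcttacgTGTTTACcgcgtagggc

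Among the activators, PSME3 and PSME4 had overlapping peaks and PSME1 and PSME2 had none. PSME3 encodes the nuclear activator PA28-gamma. Its promoter pair scored 11.3 (60 tags, rank 1313, percentile 89.2) and 22.2 (149 tags, rank 1183, percentile 95.6), and the latter was the highest score of any peak named for a proteasome gene in either list. PSME4, which encodes PA200, had an intron 1 pair with scores of 9.43 and 15.3 (percentiles 82.5 and 88.5) at 1341 and 1340 bp from the TSS. It held the PSME4 heptamer printed above 11 and 12 bp from the centres. PSME1 and PSME2, the interferon-inducible activators, had their nearest peaks between 13419 and 29056 bp away. The chaperone PSMG2 had an intron 1 pair at 1392 and 1365 bp, with scores of 10.8 and 17.5 (percentiles 87.5 and 91.6) and its heptamer 5 and 22 bp from the centres. In replicate 2, peaks named for CEP76 lay 3 and 412 bp from further PSMG2 starts, with scores of 17 and 17.7 (percentiles 90.9 and 91.8), and the latter held a heptamer. PSMG1 and PSMG4 had peaks in replicate 2 alone, and PSMG3 had none. The inhibitor PSMF1 had a promoter peak in replicate 2 alone, described below.

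**Figure D2:**
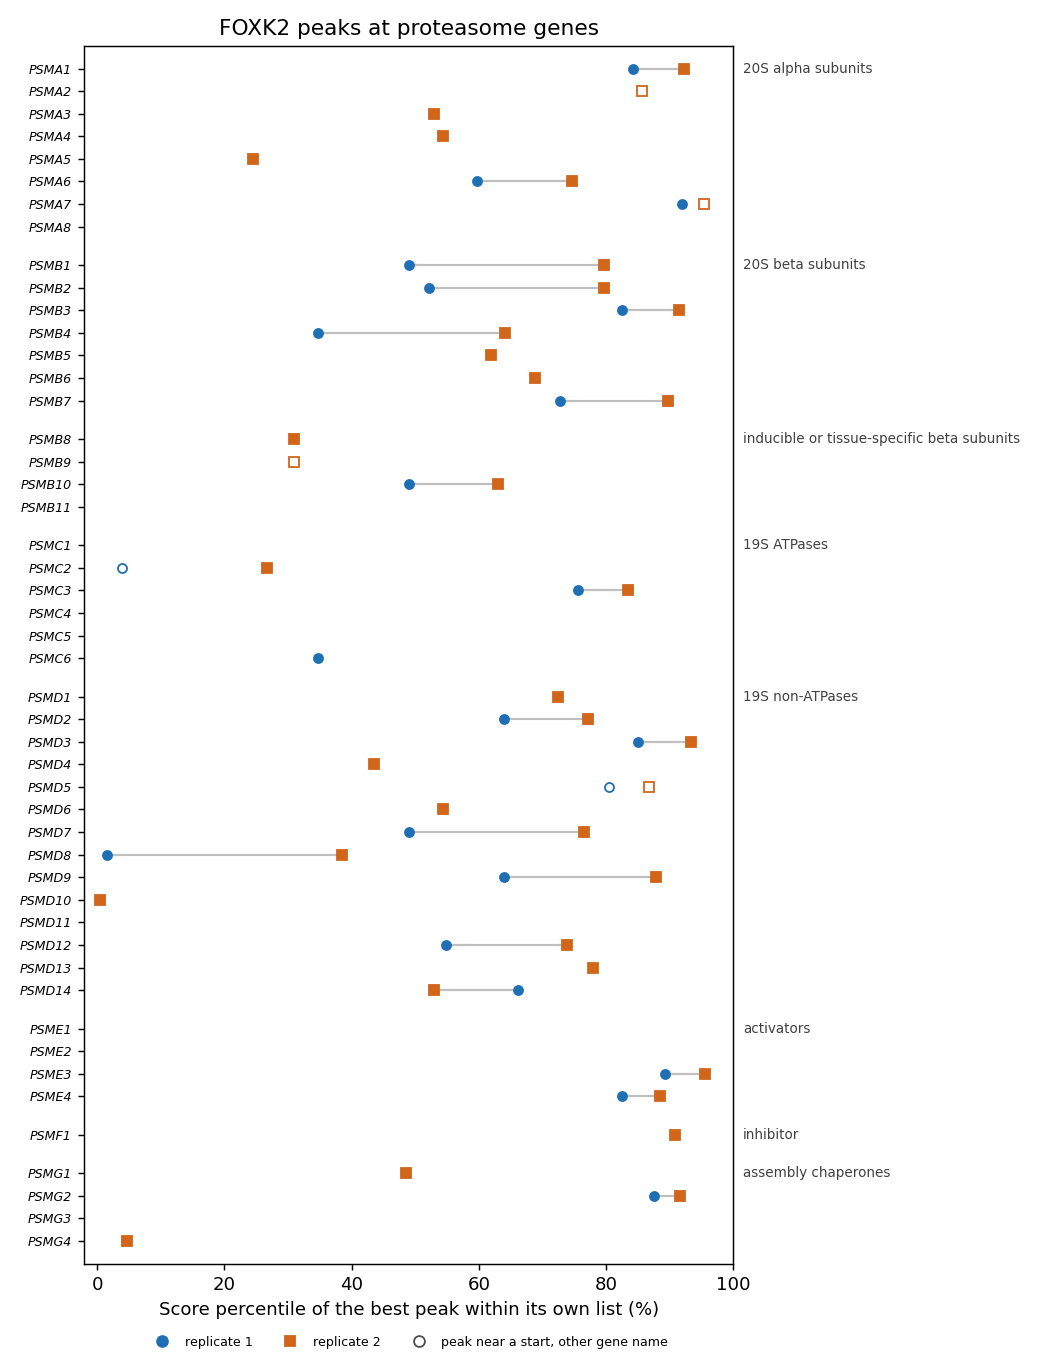
Score percentile of the best peak of each of the 48 proteasome genes within its own list, in percent, grouped by role (circles, replicate 1, squares, replicate 2). Open symbols mark peaks near a start that carry the name of another gene, lines join replicates without implying overlap, and a gene without a symbol had neither. The best peaks span percentiles 1.56 to 92 (replicate 1) and 0.392 to 95.6 (replicate 2).

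Peak strength at proteasome genes was moderate. The best peak of each gene had a median percentile of 64 in replicate 1 (21 genes) and 73.2 in replicate 2 (34 genes), against 57.3 and 63 over all protein-coding genes with a peak. For best promoter-TSS peaks the medians were 54.9 and 73.5, against 59.7 and 65.2, so the proteasome median was below the background in replicate 1 and above it in replicate 2. Proteasome peaks held a median of 32.5 tags in replicate 1 (range 19 to 67) and 62.5 in replicate 2 (range 23 to 149), against 31 and 49 over all peaks. The 90th percentile was reached by 1 of 28 proteasome peaks in replicate 1 and by 6 of 46 in replicate 2. By definition about 90% of all peaks of a list lie below it. The other proteasome peaks were below that percentile of their list.

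Of the 28 proteasome peaks of replicate 1, 22 were overlapped by a peak of replicate 2 (78.6%, 59 to 91.7), against 74.9% of all peaks. Of the 46 of replicate 2, 21 were overlapped (45.7%, 30.9 to 61), against 34.2%. At promoters 14 of 15 peaks of replicate 1 were overlapped (93.3%, against 79.1% of all promoter-TSS peaks), and elsewhere 8 of 13 (61.5%, against 73.7%). The 22 pairs shared a median of 198 bp (range 40 to 211). Across these pairs the scores of the replicates followed each other, with a Spearman rho of 0.904 over 22 pairs, beside 0.852 over all 9343 pairs. The points share their pair of libraries, so rho is a description of these lists. Every proteasome pair (22 of 22) had a higher percentile in replicate 2, as did 8349 of all 9343 pairs (89.4%). The lists differ in length. The median absolute percentile difference was 14.4 for proteasome pairs and 13.5 for all pairs.

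**Figure D3:**
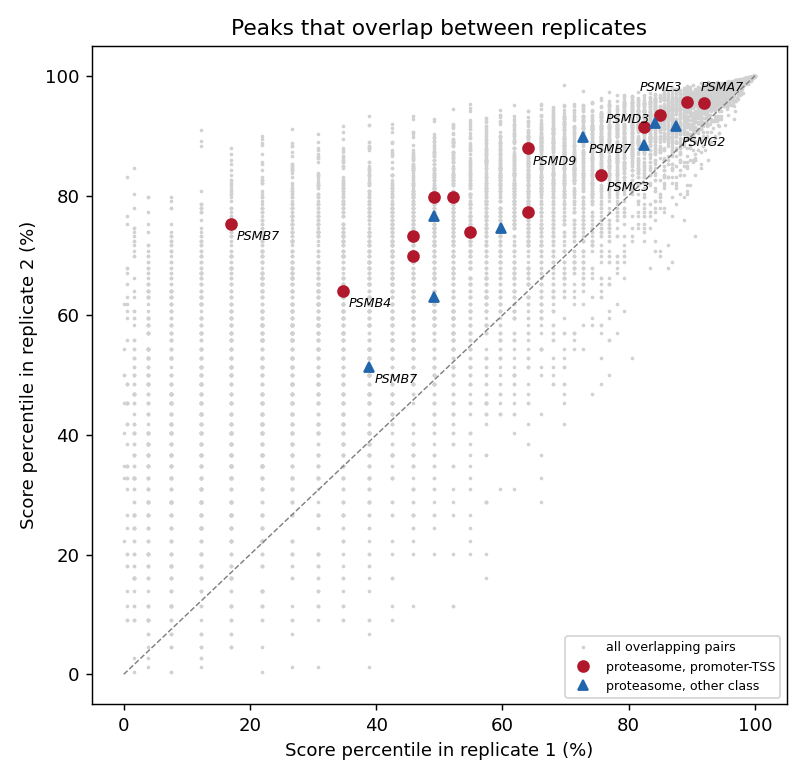
Score percentile in replicate 1 against replicate 2, in percent, for the 22 overlapping pairs at proteasome genes (circles, promoter-TSS class in replicate 1, triangles, other classes) and for all 9343 pairs (grey). All 22 pairs lie above the dashed line of equal percentiles, and the PSMB7 promoter pair is farthest above it, at 17 and 75.3.

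Proteasome peaks were concentrated at starts. The promoter-TSS class held 15 of 28 peaks in replicate 1 (53.6%, 33.9 to 72.5) and 26 of 46 in replicate 2 (56.5%, 41.1 to 71.1), against 21.7% and 18% of all peaks. Their centres lay at -228 to 80 bp from the TSS in replicate 1 (median -27 bp). In replicate 2 they lay at -191 to 205 bp (median -14.5 bp). Base composition followed the class. Promoter-TSS peaks of proteasome genes had a median GC content of 63.2% in both replicates, beside 63.2% and 63.7% for all promoter-TSS peaks. The other proteasome peaks had 45.3% and 49.3%, beside 44.8% and 44.3%. The focus ratio (the fraction of a peak's tags that fall on the strand expected for their side of the centre) had a median of 0.696 and 0.736 at proteasome promoters and 0.738 and 0.727 at all promoter-TSS peaks.

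**Figure D4:**
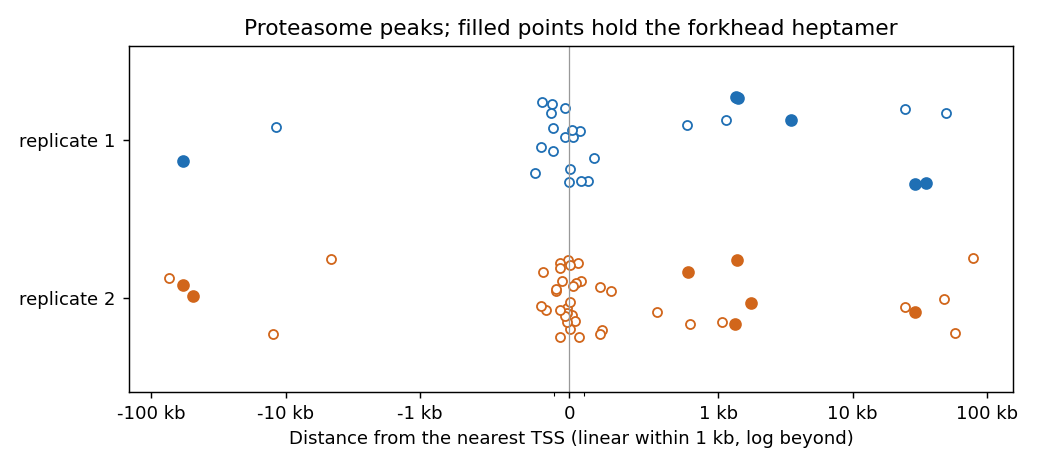
Distance from the TSS of the assigned gene to the centre of each proteasome peak (28 in replicate 1, 46 in replicate 2), linear within 1 kb and logarithmic beyond. Filled points hold TGTTTAC within 100 bp of the centre, and all of them lie away from the cluster of promoter peaks at the TSS. Vertical spread within a replicate is only for display.

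The heptamer was searched on both strands within 100 bp of each peak centre. It was present in 6 of 28 proteasome peaks in replicate 1 (21.4%, 8.3 to 41) and 7 of 46 in replicate 2 (15.2%, 6.34 to 28.9), against 30.5% and 28.2% of all peaks. The class of the peak divided the set. None of 15 proteasome promoter-TSS peaks in replicate 1 held it and none of 26 in replicate 2. Taking 3 counts of the total as the limit that a count of 0 allows, the share could be up to 20% and 11.5%. All promoter-TSS peaks had shares of 14.4% and 10.9%, which are within those limits, so a lower share at proteasome promoters was not detectable with so few peaks. The looser TGTTTNC, which also covers the heptamer, was present in 1 of 15 (6.67%, 0.169 to 31.9) and 2 of 26 (7.69%, 0.946 to 25.1) proteasome promoter-TSS peaks. Over all promoter-TSS peaks it was 28.1% and 22.9%, above the proteasome values and within their intervals. TNTTTAC, which also covers the heptamer, was present in 3 of 15 (20%, 4.33 to 48.1) and 3 of 26 (11.5%, 2.45 to 30.2). Its shares over all promoter-TSS peaks were 19.5% and 15.9%, within those intervals. Of the other proteasome peaks, 6 of 13 (46.2%, 19.2 to 74.9) and 7 of 20 (35%, 15.4 to 59.2) held TGTTTAC. Over all such peaks the TGTTTAC shares were 35% and 32%. In control windows 2000 bp to each side of the proteasome peaks the TGTTTAC share was 1 of 56 (1.79%) and 2 of 92 (2.17%).

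In all, 10 different heptamer sites lay in peaks of 8 proteasome genes, between 2 and 60 bp from a centre, and 4 of them were in both lists. The 4 are those at PSMG2, PSMA1, PSME4 and PSMB7 printed above. They lay in 4 of the 7 intronic pairs (57.1%, 18.4 to 90.1), beside 38.7% of all 3543 intronic pairs with a heptamer in both peaks. Of the 14 pairs of promoter-TSS class 0 held a heptamer, which allows a share of up to 21.4%, beside 16.8% of all 2103 such pairs. Neither count was separate from its background. The remaining sites were in peaks of a single list at PSMB2, PSMA6, PSMD3 and PSMG4. The AP-1 site TGACTCA was present in 4 of 28 (14.3%, 4.03 to 32.7) and 3 of 46 (6.52%, 1.37 to 17.9) proteasome peaks. Its shares over all peaks were 16.4% and 16.6%, within those intervals, and this count was not split by class.

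**Figure D5:**
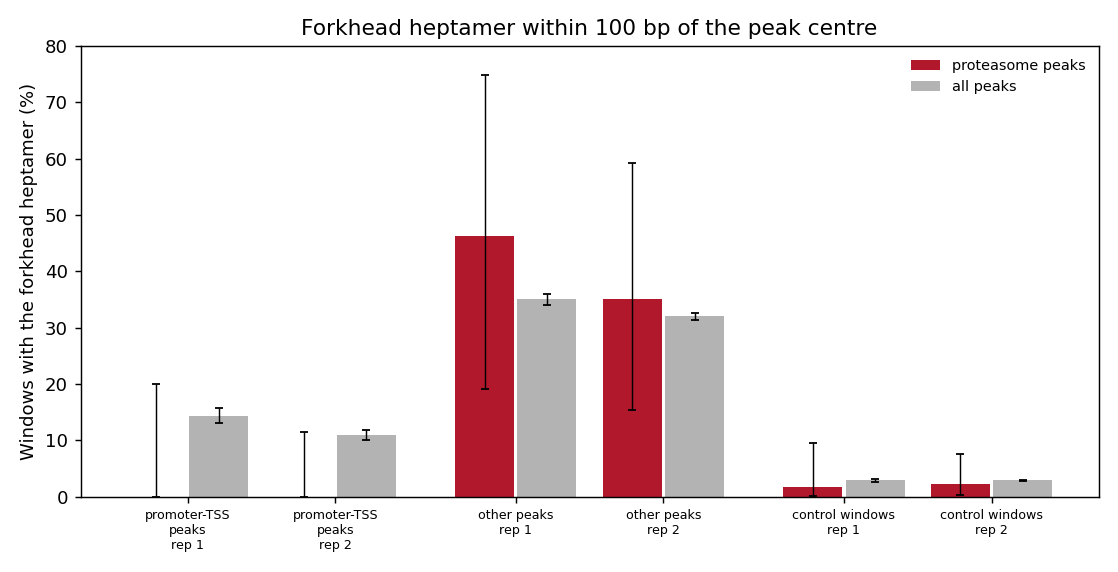
Percentage of windows with TGTTTAC within 100 bp of the centre, for proteasome peaks (red) and all peaks (grey), by class and replicate, with control windows 2000 bp to each side. Error bars are exact 95% binomial intervals, or the limit of 3 counts of the total where the count is 0. The proteasome bars are at 0 for promoter-TSS peaks and at 46.2 and 35% for other peaks.

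The same letters were counted in RefSeq promoters (250 bases before to 50 after the start), which were matched for 42 of the 48 genes. TGTTTAC was present in 2 of 42 (4.76%), at PSMB2 and PSMD5, against 3.75% of 15843 protein-coding promoters. The PSMB2 site lay 134 and 153 bp from the peak centres and so outside the searched window. CCAAT was present in 20 of 42 (47.6%, against 42.1%). TGACNNNGC was present in 15 of 42 (35.7%, against 17.9%), and CCGGAAG, the core of the ETS site, in 15 of 42 (35.7%, against 16.5%). These motifs were picked after values had been seen, and a match of letters is not evidence of a bound factor.

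Peaks without a partner were mostly the weaker ones, as in the lists as a whole. The median percentile of overlapped and other proteasome peaks was 61.9 and 28.3 in replicate 1, and 79.7 and 48.5 in replicate 2. Over all peaks these medians were 59.7 and 26.7, and 77.9 and 34.8. Counted by assigned name, 15 genes had a peak in replicate 2 alone (31.2%, 18.7 to 46.3), against 23.1% of all protein-coding genes. At 12 of them it was at the promoter (25% of 48, 13.6 to 39.6), against 8.92%. By name 2 genes, PSMA7 and PSMC6, had a peak in replicate 1 alone (4.17%, against 2.7%), although the PSMA7 region was in both lists under different names. The strongest unpaired peak was at the promoter of PSMF1, which encodes the inhibitor PI31. It scored 17 in replicate 2 (114 tags, rank 2469, percentile 90.9), and the nearest peak of replicate 1 was 210754 bp away. Of the 500 peaks nearest to it in rank, 83.2% were overlapped in replicate 1. For the next promoter peaks, PSMD13 and PSMD1, that share was 56% and 50.4%.

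No peak carried the name of 12 proteasome genes, namely PSMA2, PSMA8, PSMB9, PSMB11, PSMC1, PSMC4, PSMC5, PSMD5, PSMD11, PSME1, PSME2 and PSMG3. Of these, PSMA2, PSMB9 and PSMD5 had a peak within 1000 bp of a start under another name. For the other 9 the nearest peak was 11462 to 300701 bp away in replicate 1 and 6976 to 111804 bp in replicate 2. Counted by position, with any peak centre within 1000 bp of a GENCODE start, 20 genes had a peak in replicate 1 (41.7%), 36 in replicate 2 (75%) 19 in both (39.6%) and 37 in either (77.1%). The same count over all protein-coding genes gave 19.3%, 33.6%, 16.3% and 36.6%.

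The other genes of the pathway numbered 35 and cover assembly, ubiquitin, shuttle factors and transcription factors of proteasome genes. An assigned peak in both lists was present at 16 of them (45.7%, 28.8 to 63.4). A promoter-TSS peak in both was present at 6 (17.1%, 6.56 to 33.6), among them ADRM1, AKIRIN2, MAFF and UBB. The background shares were 28.6% and 9.31%, and the latter is within the interval of the promoter share. The strongest was an intronic pair at DDI2, the protease that activates NFE2L1, with scores of 24.5 (rank 159, percentile 98.7) and 43.4 (rank 214, percentile 99.2). It was stronger in both replicates than every peak at a proteasome gene. At NFE2L1 a pair 5233 and 5256 bp from the TSS scored 5.28 and 14.0. AKIRIN2, which imports proteasomes into the nucleus, had a promoter pair at 7.55 and 18.0, and the ubiquitin receptor ADRM1 one at 6.98 and 11. POMP, the maturation chaperone of the core particle, had a peak in replicate 2 alone (5.21).

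The heptamers found in both lists at DDI2 and NFE2L1 are printed in the same way, since these pairs lie at genes that control proteasome supply. DDI2 had a pair of sites, at chr1:15620399-15620425 and chr1:15620495-15620521 on the plus strand. The NFE2L1 site is at chr17:48053594-48053620 on the plus strand. These sites were outside promoter-TSS peaks. At UBE3C, a ubiquitin ligase that acts at the proteasome, the heptamer was present in a promoter-TSS pair of both lists (scores 10.0 and 15). A promoter-TSS peak of MAFF held it in replicate 2 alone.
DDI2 first site: aaatatatcaTGTTTACttacttgagt
DDI2 second site: ctcctcctctTGTTTACattctccatt
NFE2L1: gggggtggccTGTTTACagctctttcc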

How the data were processed

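FOXK2 was measured by ChIP-seq in OVCAR5 cells in 2 replicates. The authors mapped single-end reads to hg38 with Bowtie2 2.2.6 and called and annotated peaks per replicate with HOMER 4.10. The study's methods also describe enrichment statistics for each peak, and the study applied a false discovery rate threshold to peaks. Whether these or the inputs shaped the lists used here is not given in the sources used here. The deposited lists give a peak score, a focus ratio (a fraction) and, among other columns, the distance in bp to the nearest TSS. The lower deposited scores were whole multiples of 0.189 (replicate 1) and 0.149 (replicate 2), within 0.00496, and 1 step was read as 1 tag. The higher scores were not checked in this way, and their tags were computed with the same step. The weakest peaks then held 16 and 21 tags, so precision differs between lists and scores were ranked within a list. Tied scores share the best rank of the tie, while their percentile is taken at the middle of the tie.

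Members were matched by gene name, and the 48 genes and the background by RefSeq symbol and identifier. The rule named every such gene by role, with values for overlapping pairs. Peaks spanned 210 and 256 bp from start to end. They were paired when they overlapped by 1 bp or more, with both end positions counted, so a shared stretch can be 1 bp longer than the span. Starts came from GENCODE release 44. Motifs were searched in hg38 (pysam 0.24.0, pandas 2.3.3). Intervals are exact Clopper-Pearson at 95% (scipy 1.17.1), and for a count of 0 the limit is 3 counts of the total. The pairing of peaks and the motif search were checked on simulated peaks and sequences with known answers. The other steps were not checked in this way. The members and lists were chosen with earlier results of these data known. Alternatives for overlap, threshold, list length, distance, gene assignment and motif are given at the end. Reads, histone marks and expression were not analysed here.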

Additional observations from a re-analysis of the deposited data

How the results depend on the processing

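Of 36 alternative values, 29 stayed within the limits set for them and 7 moved. The values are counts, shares and medians without a direction, so a reversal could not be scored. The limits were wide for counts, where 13 to 21 genes beside 19 and 9 to 15 beside 13 were scored as staying. For a share the limit was its own exact interval. For a median percentile it was 6.46, the SD of the median between the replicates. Leaving out a replicate gave 21 to 34 genes with a peak and 15 to 26 with a promoter-TSS peak, since a single list then decides. Other alternatives gave 13 to 19 and 9 to 15 genes. When each list was limited to scores at or above its median, 94.4% of the proteasome peaks of replicate 1 were overlapped, and the median percentile of the best peak was 41.9 in replicate 1 and 55.8 in replicate 2, since percentiles were then taken within the shortened list. It was 55.6 in replicate 2 with lists of equal length, for the same reason, and 54.9 in replicate 1 with promoter-TSS peaks only. The TGTTTAC share was 17.9 to 25% (replicate 1) and 15.2 to 19.6% (replicate 2) with other windows or only overlapping peaks. The looser TGTTTNC gave 28.6 and 21.7% (all peaks 45.9 and 43.8%) and TNTTTAC 32.1 and 23.9% (all peaks 39.9 and 38.1%). No paired analysis was possible because the inputs, which share the replicate numbers, have no values among the peak lists and were not analysed here. The lists differ in length and in the tags of their weakest peaks, so absence from a list is not evidence of absent binding, and gene names rest on the nearest TSS.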

Other observations

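At some genes with promoter peaks of their own, further peaks near a start carried the name of a neighbour. A pair named for TBP, scoring 9.05 and 19.5, was centred 901 and 845 bp from a PSMB1 start. A pair named for BECN1, scoring 7.36 and 12.2, was centred 118 and 80 bp from an alternative PSME3 start.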
